A study of Homo sapiens with 9 samples.

Results

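THP-1 cells carrying the first of 2 short hairpin RNAs against RASSF2, shRASSF2-1, were compared gene by gene with THP-1 cells carrying a control hairpin, shCTRL. The account centres on what shRASSF2-1 did that the second hairpin, shRASSF2-2, did not. THP-1 is a human acute monocytic leukemia line. Cells of every group, controls included, had been transduced with a lentivirus and kept in puromycin at 1 ug/mL for 96 h. The hairpins were TRC clones TRCN0000077888 (shRASSF2-1), TRCN0000077891 (shRASSF2-2) and SHC002 (shCTRL). RNA came from 2.0 M viable cells per condition, and each group had 3 poly(A) RNA sequencing libraries. A gene was compared when its normalised read count was at least 10 in at least 3 of the 6 libraries of shRASSF2-1 and shCTRL. That held for 14902 of the 18522 genes in the table. Of these, 13240 were at 10 or more in all 6 libraries and 601 in exactly 3, and 460 genes left out were at 10 or more in 2. Some had to differ by this choice: 285 reached the minimum in all 3 shRASSF2-1 libraries and no shCTRL library, and 108 in all 3 shCTRL libraries and no shRASSF2-1 library.

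RASSF2 encodes a Ras association domain protein that binds the Hippo pathway kinases MST1 and MST2, and it is often silenced in tumours. Type I interferons act through the receptor IFNAR1 and IFNAR2 and the kinases JAK1 and TYK2, which activate a transcription factor complex that holds STAT2 and IRF9. This complex binds interferon-stimulated response elements in promoters and switches on antiviral effector genes. Monocytic cells keep a low level of many of these effectors without infection. The AKR1C genes, which come up below among the genes raised by shRASSF2-1, encode aldo-keto reductases that act on steroids, prostaglandins and lipid aldehydes.

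Libraries held 13.3 to 14.2 M reads with shRASSF2-1, 14.5 to 15.2 M with shRASSF2-2 and 13.9 to 20.1 M with shCTRL. On the first principal component shRASSF2-1 lay at -40.9 to -33.2, shRASSF2-2 at 93.8 to 101 and shCTRL at -67.5 to -52.0, so shRASSF2-1 was nearer to shCTRL. On the second, shRASSF2-1 lay at -68.6 to -64.7, shRASSF2-2 at 8.17 to 11.4 and shCTRL at 44.8 to 69.2. On the third, shCTRL replicate 1 stood apart at 57.8, against -29.4 and -40.7 for the other shCTRL libraries. The libraries ran on 2 flow cells: shCTRL replicates 1 and 2 were on one, and shCTRL replicate 3 and all 6 knockdown libraries were on the other. Nothing in the labels ties the libraries within a group to separate cultures, and the p-values therefore measure only the spread between these libraries, which may be technical. After the authors' scaling, a shRASSF2-1 library summed to 12.6 to 12.8 M, against 16.4 to 16.8 M with shRASSF2-2 and 15.9 to 16.9 M with shCTRL. Scaling to equal total reads instead moved the median log2 fold change over all genes from 0.011 to 0.39 for shRASSF2-1 against shCTRL, and from 0.054 to 0.44 for shRASSF2-1 against shRASSF2-2. Small changes with shRASSF2-1 are therefore read against that shift. Of 13 markers of THP-1 cells, 12 were compared and MEIS1, named after its values were seen, was under the minimum, with 1.91, 2.65 and 0.907 normalised read counts with shRASSF2-1 and 0, 0.830 and 0.937 with shCTRL. The 13 markers summed to 21173 to 22125 with shRASSF2-1, 45623 to 47289 with shRASSF2-2 and 23920.0 to 27602 with shCTRL.

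RASSF2 mRNA was lowest with shRASSF2-1. This gene lies on chromosome 20 (GRCh38, chr20:4780023-4823608, Entrez gene 9770). It had normalised read counts of 134, 198 and 159 with shRASSF2-1, 331, 342 and 262 with shRASSF2-2 and 1104, 1078 and 1010.4 with shCTRL. No library of one group overlapped another group's range. The log2 fold change with shRASSF2-1 was -2.71 against shCTRL (SE 0.154, limma adjusted p = 3.91e-07) and -0.93 against shRASSF2-2 (SE 0.154, limma adjusted p = 0.00043). The hairpins thus differed in residual RASSF2 mRNA as well as in sequence.

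With shRASSF2-1, 4070 genes were higher (27.3% of the 14902) and 4469 were lower (30.0%) than with shCTRL at a limma adjusted p under 0.05. With shRASSF2-2, 30.6% were higher and 30.2% lower than with shCTRL. Between the hairpins, 4403 genes were higher with shRASSF2-1 (29.5%) and 4361 lower (29.3%). A gene is called particular to shRASSF2-1 below when it differed from shCTRL and from shRASSF2-2 in the same direction and shRASSF2-2 did not move it that way against shCTRL. By that rule 1533 genes (10.3%) were higher and 1683 (11.3%) were lower, against 3392 higher and 807 lower with scaling to equal total reads. In this subset, 566 genes (3.80%) were higher and 525 (3.52%) were lower by at least 2-fold against both. In opposite directions, 850 genes (5.70%) were lower with shRASSF2-1 and higher with shRASSF2-2, and 372 (2.50%) the other way. Scaling to equal total reads turned that order round, with 444 and 974 genes, and flow cell as a covariate gave 552 and 163. Leaving out shCTRL replicate 1 brought the count of 372 to 600. These comparisons share libraries (the controls, or the shRASSF2-1 libraries), so each gene's values in all 3 groups are given side by side.

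Interferon-induced antiviral effectors were lowered by shRASSF2-1 and raised by shRASSF2-2. All 45 genes of the effector list were measured. With shRASSF2-1, 42 were lower than with shCTRL, 1 was higher (LGALS3BP) and 2 were not called (IFI27 and BST2), with a median log2 fold change of -2.20, where all 14902 genes had 0.011. With shRASSF2-2, all 45 were higher than with shCTRL (median 1.70, against 0.0011 over all genes). All 45 were lower with shRASSF2-1 than with shRASSF2-2 (median -4.15, against 0.054). The 42 lowered effectors were all particular to shRASSF2-1, where 11.3% of all genes were. With scaling to equal total reads 39 were lower and 1 higher than with shCTRL, 43 and 1 among only the 7 libraries that shared a flow cell, which hold 1 control, and 40 and 1 when flow cell entered the fit. Summed over the 45 genes, normalised read counts per library were 36861 to 38722 with shRASSF2-1, 520320.4 to 571687 with shRASSF2-2 and 145370.3 to 159196 with shCTRL.

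The promoters of 5 of these genes are shown because they carry the core of the interferon-stimulated response element, GAAA and GAAA with any 2 bases between them, which was looked for on both strands (TTTC and TTTC on the other). Sequences are upstream of the start site, 5′ to 3′ on the gene's strand, from RefSeq on GRCh38.p14. Capitals mark matches, and overlapping matches run together.
ISG15 (chr1:1013365-1013424, plus strand): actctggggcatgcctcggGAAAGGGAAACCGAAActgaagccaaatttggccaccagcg
IFIT1 (chr10:89392495-89392554, plus strand): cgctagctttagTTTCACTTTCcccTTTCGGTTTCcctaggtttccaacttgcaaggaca
IFIT3 (chr10:89327850-89327909, plus strand): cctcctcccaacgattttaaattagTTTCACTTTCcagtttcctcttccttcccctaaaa
ISG20 (chr15:88638922-88638981, plus strand): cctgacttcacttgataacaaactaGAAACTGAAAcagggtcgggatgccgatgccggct
EPSTI1 (chr13:42992257-42992316, minus strand): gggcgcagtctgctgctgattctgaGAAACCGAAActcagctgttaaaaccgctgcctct
RefSeq promoter windows, from 250 bases before to 50 after the start, were matched for 37 of the 45 effectors, and 26 of these (70.3%) held the motif. It was in 3.65% of all 27305 windows and in 2.91% of the 11565 windows matched to compared genes. It was in 86 of 1401 windows (6.14%) of genes particular to shRASSF2-1 and lower, and in 15 of 1177 (1.27%) of those particular and higher. The 1401 windows include those of the lowered effectors, so the 6.14% is not separate from the 70.3%. A match is a description of these letters and was not tested as a binding site.

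Of the 15 lowest genes particular to shRASSF2-1, 7 were on the effector list, OAS2, ISG15, IFIT1, MX1, IFIT2, OASL and TRIM22. OAS2, which makes the 2′-5′ oligoadenylate messenger that activates RNase L, had normalised read counts of 499, 506 and 581 with shRASSF2-1, 19378, 19428 and 20098 with shRASSF2-2 and 8134, 10366 and 10809 with shCTRL. ISG15, a ubiquitin-like modifier, had 171, 209 and 184 with shRASSF2-1, 13565, 14141 and 14339 with shRASSF2-2 and 2749, 3226 and 4020.1 with shCTRL. In both genes every shRASSF2-1 library was below every other library, and every shRASSF2-2 library was above every shCTRL library. The log2 fold changes of OAS2 with shRASSF2-1 were -4.20 against shCTRL (SE 0.113, limma adjusted p = 1.01e-08) and -5.22 against shRASSF2-2 (limma adjusted p = 3.03e-10). Those of ISG15 were -4.13 (SE 0.13, limma adjusted p = 2.24e-08) and -6.22 (limma adjusted p = 2.55e-10).

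The IFIT proteins, which bind viral RNA ends, stood far apart between the hairpins. IFIT1 had normalised read counts of 177, 163 and 189.6 with shRASSF2-1, 28863, 28611 and 33315 with shRASSF2-2 and 2289, 3174 and 3331 with shCTRL. IFIT2 had 172, 111 and 132 with shRASSF2-1, 19106, 18193 and 24102 with shRASSF2-2 and 1793, 1501 and 1565 with shCTRL. IFIT3 had 303, 294 and 317 with shRASSF2-1, 24996, 24604 and 28968 with shRASSF2-2 and 2924, 2589 and 2589 with shCTRL. In all 3 genes the shRASSF2-1 libraries were lowest, the shRASSF2-2 libraries highest and the shCTRL libraries between, with no overlap. Against shCTRL the log2 fold changes with shRASSF2-1 were -4.03, -3.56 and -3.14, and against shRASSF2-2 -7.41, -7.21 and -6.42. All 6 had a limma adjusted p of 1.45e-07 or less.

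The same order held for other classes of effector. MX1, a dynamin-like GTPase that traps viral nucleocapsids, had normalised read counts of 674, 805 and 702 with shRASSF2-1, 19479.9, 20089 and 20046 with shRASSF2-2 and 10462, 8086 and 8166 with shCTRL (-3.61 against shCTRL, limma adjusted p = 2.18e-08). RSAD2, or viperin, an enzyme that makes a chain-terminating nucleotide, had 372, 336 and 391 with shRASSF2-1, 17730.5, 17499 and 19872 with shRASSF2-2 and 1194, 1343 and 1256 with shCTRL (-1.78 against shCTRL, limma adjusted p = 2.01e-07). ISG20, an exonuclease that degrades RNA, had 24.8, 27.4 and 10.9 with shRASSF2-1, 2324, 1929 and 2541 with shRASSF2-2 and 196, 150.3 and 204 with shCTRL (-3.15 against shCTRL, limma adjusted p = 9.14e-06). None of the 3 groups overlapped another in these genes. OASL, which enhances RNA sensing, fell by -3.53 on the log2 scale, the retroviral restriction factor TRIM22 had -3.27, MX2 -2.45, the ADP-ribosyltransferase family member PARP9 -2.12, SAMD9L -2.27, EPSTI1 -2.55 and IFI35 -0.90, each against shCTRL with a limma adjusted p of 3.49e-06 or less. USP18 and EIF2AK2, with the effectors of the next paragraph, were chosen from the list after their values were seen. USP18, which removes ISG15 from proteins and damps receptor signalling, had -3.15 with shRASSF2-1 and 0.96 with shRASSF2-2, each against shCTRL. EIF2AK2, the kinase PKR that halts translation on double-stranded RNA, had -2.28 with shRASSF2-1 and 0.38 with shRASSF2-2, each against shCTRL.

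**Figure D1:**
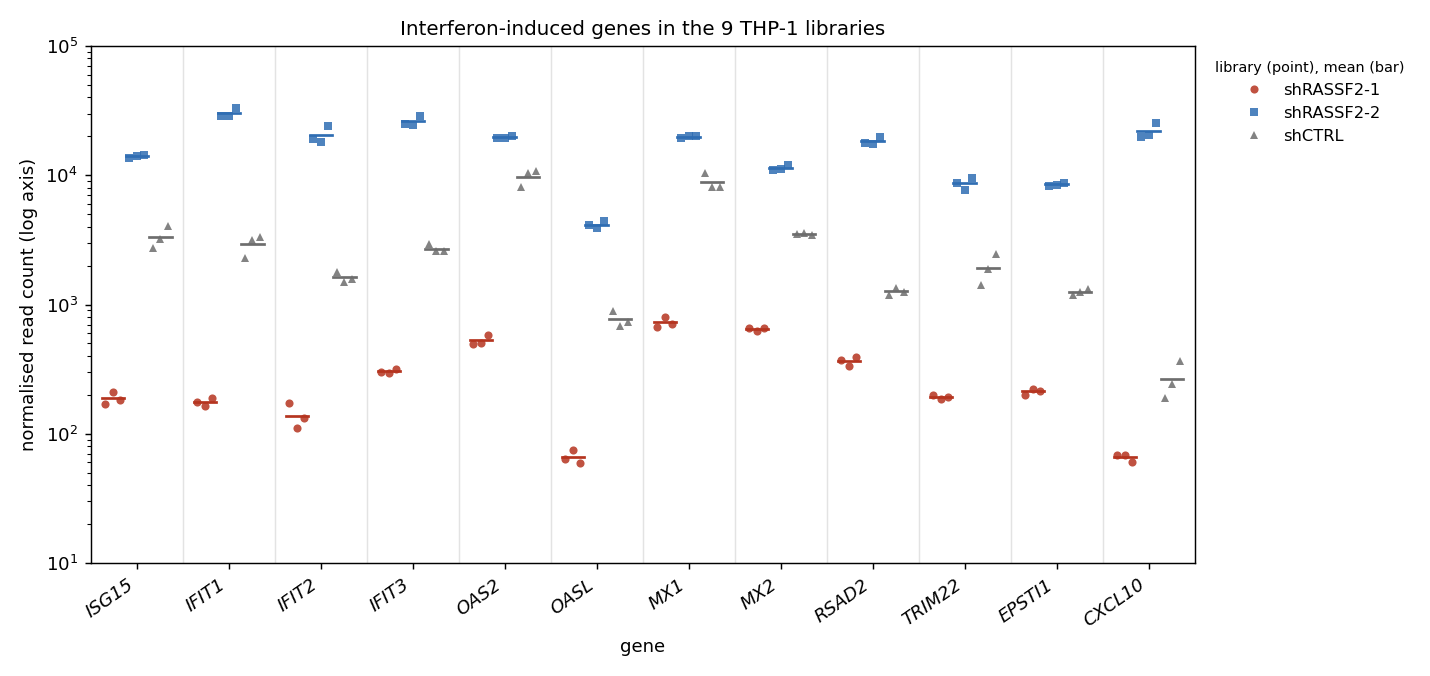
Normalised read counts on a log axis of 12 interferon-induced genes in each of the 9 libraries, with a bar at each group mean (shRASSF2-1 red circles, shRASSF2-2 blue squares, shCTRL grey triangles). The red points lie under the grey and the blue points over the grey in each gene, for example in IFIT1 at 163 to 190 with shRASSF2-1, 28611 to 33315 with shRASSF2-2 and 2289 to 3331 with shCTRL.

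Some effectors left this order or were called weakly. LGALS3BP, a secreted galectin-binding glycoprotein, had normalised read counts of 1073, 1412 and 1109 with shRASSF2-1, 12343, 11892 and 13268 with shRASSF2-2 and 435, 543 and 686 with shCTRL, so it was higher with both hairpins than with shCTRL (1.12 with shRASSF2-1, limma adjusted p = 0.000169). BST2, or tetherin, which holds budding virions at the membrane, had 2935, 3199 and 2985 with shRASSF2-1, 10632, 11507 and 10453 with shRASSF2-2 and 1799, 4563 and 5231 with shCTRL; the shRASSF2-1 libraries lay within the shCTRL range (-0.21, limma adjusted p = 0.597). IFI27 varied within groups, with 10.5, 143 and 12.7 with shRASSF2-1, 434, 386 and 1765 with shRASSF2-2 and 214, 24.1 and 71.2 with shCTRL (-1.37 against shCTRL, limma adjusted p = 0.281). LY6E (limma adjusted p = 0.0381), DDX60L (0.000434) and SP100 (0.00319) were lower with shRASSF2-1 than with shCTRL, and lost the call with scaling to equal total reads (0.0661, 0.124 and 0.793). LY6E also lost it without any 1 of the knockdown libraries (0.0550 to 0.117). IFITM1, IFITM2 and IFITM3 have near-identical copies and their values are uncertain.

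**Figure D2:**
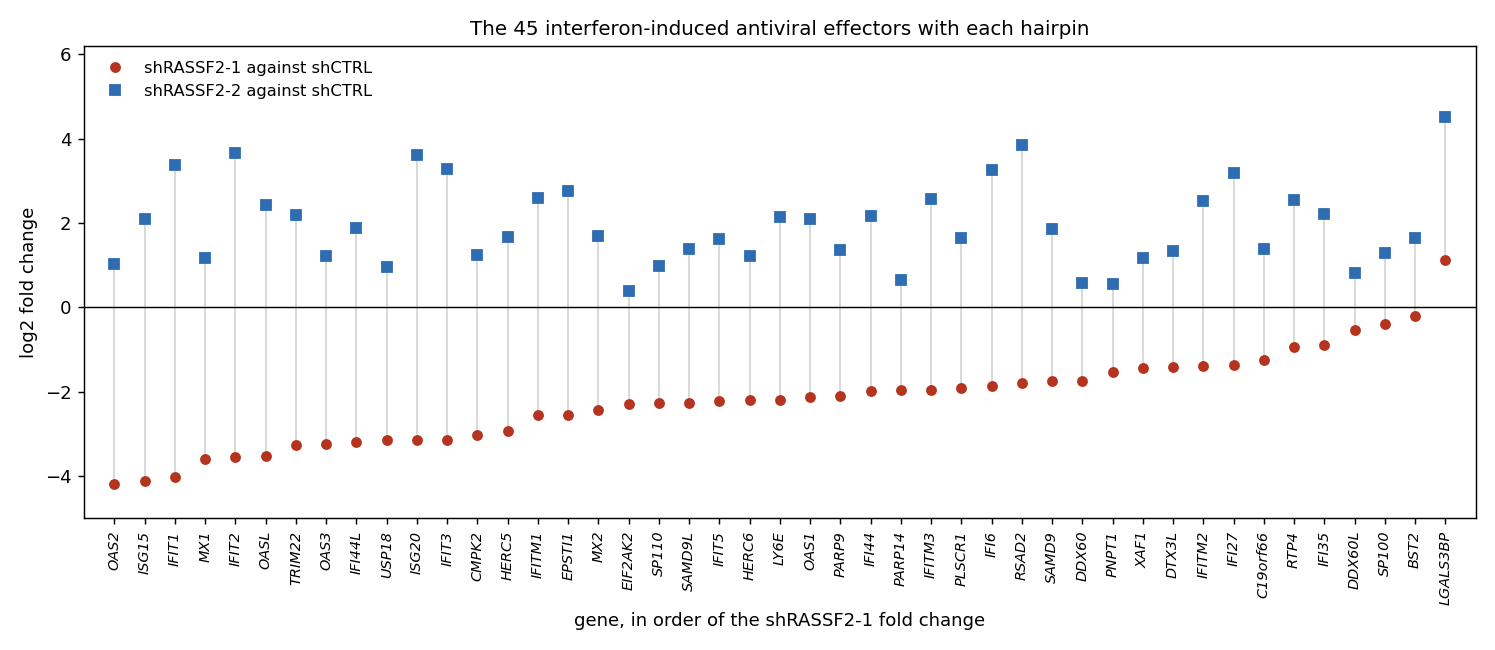
The 45 interferon-induced antiviral effectors, each with its log2 fold change for shRASSF2-1 (red circles) and for shRASSF2-2 (blue squares) against shCTRL, in order of the shRASSF2-1 value. Red values run from -4.20 for OAS2 to 1.12 for LGALS3BP with 44 of the 45 below 0, and the 45 blue values lie above 0.

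Upstream of the effectors, STAT2 and STAT3 were lower with shRASSF2-1 than with shCTRL. The list of interferon receptors, kinases and factors had 23 measured members. Of these, 14 were lower and 5 higher with shRASSF2-1 than with shCTRL (median -0.34), where 30.0% and 27.3% of all genes were. With shRASSF2-2, 18 were higher and 1 lower than with shCTRL (median 0.95), where 30.6% and 30.2% of all genes were. Scaling to equal total reads left 6 lower and 8 higher with shRASSF2-1, so the direction of the smaller changes in this list depends on scaling. STAT2 had normalised read counts of 1306, 1162 and 1239 with shRASSF2-1, 10696, 10234 and 10742 with shRASSF2-2 and 2790.5, 3006 and 3514 with shCTRL (-1.32 against shCTRL, limma adjusted p = 1.71e-06). The 3 groups did not overlap in STAT2. STAT3 had -0.77 and IRF5 -0.70 with shRASSF2-1 against shCTRL (limma adjusted p = 7.79e-05 and 5.97e-05).

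IRF9, the DNA-binding partner of STAT2, had normalised read counts of 1326, 1308 and 1199 with shRASSF2-1, 3957, 3600.5 and 3895 with shRASSF2-2 and 1604, 1478 and 1685 with shCTRL. Its log2 fold change with shRASSF2-1 was -0.31 against shCTRL (limma adjusted p = 0.00847) and 0.064 with scaling to equal total reads, so its direction against shCTRL is not settled. The receptor chain IFNAR2 likewise had -0.23 (limma adjusted p = 0.0279) and 0.143 with that scaling. IFNAR1 (-0.46) and the kinase JAK2 (-0.43) were lower than with shCTRL and lost the call with that scaling (limma adjusted p = 0.394 and 0.645). IRF1, an interferon-gamma responsive factor, had 577, 581 and 515 with shRASSF2-1, 2496, 2271 and 2598 with shRASSF2-2 and 535, 491 and 529 with shCTRL; its difference between shRASSF2-1 and shCTRL was 0.11 (limma adjusted p = 0.34). Against shRASSF2-2 all of these were lower with shRASSF2-1, with log2 differences of -3.10 for STAT2, -1.58 for IRF9 and -2.14 for IRF1. IFNB1, the gene for interferon beta, stayed under the minimum, with 0.953, 1.77 and 0.907 normalised read counts with shRASSF2-1, 6.80, 3.40 and 7.69 with shRASSF2-2 and 0, 4.98 and 9.37 with shCTRL. It was looked at after the other values had been seen.

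Sensors of foreign nucleic acid, several of which are themselves interferon-induced, gave mixed counts. Of 22 listed, 20 were compared. With shRASSF2-1, 10 were lower and 5 higher than with shCTRL, where 30.0% and 27.3% of all genes were. Scaling to equal total reads gave 8 lower and 7 higher. Each of the 10 was particular to shRASSF2-1 and lower, where 11.3% of all genes were. DDX58, the RNA sensor RIG-I, had normalised read counts of 489.6, 424 and 494 with shRASSF2-1, 6757, 6414 and 7466 with shRASSF2-2 and 1439, 1459 and 1574 with shCTRL (-1.67 against shCTRL, limma adjusted p = 3.35e-07). IFIH1, the long double-stranded RNA sensor MDA5, had 795, 805 and 748 with shRASSF2-1, 9814, 9639.5 and 10769 with shRASSF2-2 and 2374, 2029 and 2091 with shCTRL (-1.46 against shCTRL, limma adjusted p = 4.92e-07). No group overlapped another in these genes. IFI16, a DNA sensor, had -1.64 with shRASSF2-1 and 2.26 with shRASSF2-2, and the ubiquitin ligase TRIM25, which activates RIG-I, -1.53 and 0.36, each against shCTRL. The RNA-editing enzyme ADAR had 6111, 6171 and 6479.9 with shRASSF2-1, 29098, 28830.1 and 28885 with shRASSF2-2 and 29245, 20282 and 18560.5 with shCTRL, so it was low with shRASSF2-1 alone, while the shRASSF2-2 and shCTRL ranges overlapped (-1.83 against shCTRL, limma adjusted p = 3.67e-06).

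The endosomal receptor TLR7 had normalised read counts of 10.5, 29.2 and 9.98 with shRASSF2-1, 828, 742 and 1014 with shRASSF2-2 and 56.9, 45.7 and 37.5 with shCTRL (-1.59 against shCTRL, limma adjusted p = 0.00329, and 0.0620 with flow cell as a covariate). TLR8 was above shCTRL with both hairpins, by 1.51 with shRASSF2-1 and 3.72 with shRASSF2-2. TMEM173, or STING, the adaptor of the cytosolic DNA pathway, ran the other way: it had 4279, 3969 and 3777 with shRASSF2-1, 984, 1003 and 1037 with shRASSF2-2 and 3698, 3535 and 3799.8 with shCTRL. Its shRASSF2-1 libraries were near shCTRL (0.12, limma adjusted p = 0.193) and above shRASSF2-2 (1.99, limma adjusted p = 1.07e-08).

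The chemokine genes CXCL10 and CXCL11 were below shCTRL with shRASSF2-1 and far above it with shRASSF2-2. CXCL10, a chemokine for activated T cells, had normalised read counts of 68.6, 68.1 and 60.8 with shRASSF2-1, 19886, 20544 and 25485 with shRASSF2-2 and 189.9, 242 and 366 with shCTRL. CXCL11, which uses the same receptor, had 11.4, 23.9 and 22.7 with shRASSF2-1, 4225, 4006 and 5321 with shRASSF2-2 and 48.4, 77.2 and 75.9 with shCTRL. In both, the shRASSF2-1 libraries were below the shCTRL libraries and the shRASSF2-2 libraries far above, and the log2 fold changes with shRASSF2-1 against shCTRL were -1.95 and -1.78 (limma adjusted p = 2.07e-05 and 0.000327). The guanylate-binding proteins, which interferon-gamma also induces, did not move together with shRASSF2-1. Of 5 compared, 2 were higher and 2 lower than with shCTRL, where 27.3% and 30.0% of all genes were. Scaling to equal total reads gave 2 higher and 0 lower. With shRASSF2-2, 5 were higher than with shCTRL, where 30.6% of all genes were. GBP1, a GTPase that attacks vacuoles holding pathogens, had 19.1, 15.03 and 13.6 with shRASSF2-1, 6323, 5728 and 6789 with shRASSF2-2 and 26.6, 20.8 and 25.3 with shCTRL. Its difference from shCTRL (-0.58, limma adjusted p = 0.0123) lost the call with DESeq2 (0.0647), with scaling to equal total reads (0.271), in the fit of these groups alone (0.132) and with flow cell as a covariate (0.0551). GBP3 had -0.20 with shRASSF2-1 against shCTRL (limma adjusted p = 0.0669) and -3.34 against shRASSF2-2. GBP2 was above shCTRL in every shRASSF2-1 library, with 204, 188 and 230.4 with shRASSF2-1, 2159.8, 1930.2 and 2324 with shRASSF2-2 and 64.1, 105 and 141 with shCTRL (1.07 against shCTRL, limma adjusted p = 0.00284, and 0.0986 with flow cell as a covariate).

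Genes of antigen presentation by MHC class I fell in part. Of 14 genes compared, 8 were lower and 3 higher with shRASSF2-1 than with shCTRL, where 30.0% and 27.3% of all genes were. With shRASSF2-2, 9 were higher and 0 lower than with shCTRL, where 30.6% and 30.2% of all genes were. Scaling to equal total reads gave 4 lower and 4 higher with shRASSF2-1, so the counts of this list depend on scaling. Over all 14902 genes that scaling gave 2570 lower and 6847 higher. CALR, a chaperone of the peptide-loading complex, had normalised read counts of 9475, 9087 and 8348 with shRASSF2-1, 35161, 38461 and 35915 with shRASSF2-2 and 22858, 25816 and 24226 with shCTRL (-1.44 against shCTRL, limma adjusted p = 1.01e-06). PSME2, a subunit of the proteasome activator PA28, had 1166, 1043 and 994 with shRASSF2-1, 4609.8, 4532 and 5084 with shRASSF2-2 and 2672, 3752 and 3979 with shCTRL (-1.68 against shCTRL, limma adjusted p = 4.51e-06). The 3 groups did not overlap in these genes. B2M, the light chain of class I molecules, had 2175, 2876 and 2256 with shRASSF2-1, 21203, 22674 and 24836 with shRASSF2-2 and 2753, 5578 and 6519 with shCTRL, so 1 shRASSF2-1 library lay above the lowest shCTRL library (-0.94, limma adjusted p = 0.0112, and 0.0978 with scaling to equal total reads). HLA genes have near-identical copies and are not described singly.

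The 15 highest genes particular to shRASSF2-1 included 3 AKR1C reductases, and AKR1C2 and AKR1C3 led them. AKR1C2, which reduces dihydrotestosterone, lies on chromosome 10 (chr10:4987775-5018000). It had normalised read counts of 4330.3, 4047 and 4196 with shRASSF2-1, 46.5, 124 and 56.0 with shRASSF2-2 and 78.6, 128 and 122 with shCTRL. AKR1C3, a prostaglandin F and androgen synthase, had 478, 445 and 468 with shRASSF2-1, 14.7, 27.2 and 16.5 with shRASSF2-2 and 16.9, 39.0 and 30.0 with shCTRL. AKR1C1, which inactivates progesterone, had 720.1, 702 and 681 with shRASSF2-1, 62.4, 98.7 and 100.002 with shRASSF2-2 and 123, 73.9 and 69.4 with shCTRL. In all 3 genes the shRASSF2-1 libraries stood far above the rest and the ranges of shRASSF2-2 and shCTRL overlapped. The log2 fold changes with shRASSF2-1 against shCTRL were 5.28, 4.05 and 3.01 (limma adjusted p = 5.14e-07, 2.77e-06 and 3.4e-06), and against shRASSF2-2 5.91, 4.55 and 3.03.

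The other coding genes of that stretch of chromosome 10, looked at after these values had been seen, were higher too. AKR1E2 had normalised read counts of 267, 246 and 240.4 with shRASSF2-1, 81.6, 120.3 and 89.0 with shRASSF2-2 and 106, 132 and 133 with shCTRL (1.02 against shCTRL, limma adjusted p = 0.000581). AKR1C4, a bile acid reductase of liver, had 47.6, 59.2 and 41.7 with shRASSF2-1, 5.67, 11.3 and 16.5 with shRASSF2-2 and 21.8, 6.64 and 12.2 with shCTRL (1.92 against shCTRL, limma adjusted p = 0.00524). The AKR1C genes are near-identical copies, so how their reads were divided among them is uncertain. They share a list with targets of NRF2, the transcription factor of the oxidative stress response. Of its 34 compared members, 11 were higher and 5 lower with shRASSF2-1 than with shCTRL, where 27.3% and 30.0% of all genes were, and 21 were higher with shRASSF2-2. Scaling to equal total reads gave 17 higher and 4 lower with shRASSF2-1. The heme-degrading enzyme HMOX1 had 615, 618 and 549 with shRASSF2-1, 43441, 36296 and 42389 with shRASSF2-2 and 439, 273 and 292 with shCTRL. NQO1, a quinone reductase chosen after its values were seen, had 922, 858 and 664 with shRASSF2-1, 2334, 2639 and 2532 with shRASSF2-2 and 485, 747 and 776 with shCTRL (0.30 with shRASSF2-1 against shCTRL, limma adjusted p = 0.177). The ranges of shRASSF2-1 and shCTRL overlapped for NQO1 and not for HMOX1, and shRASSF2-2 was far above both for each. GCLC, the first enzyme of glutathione synthesis, had 0.25 with shRASSF2-1 and 3.18 with shRASSF2-2, each against shCTRL.

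The other genes raised by shRASSF2-1 alone had varied roles. F3, or tissue factor, which starts coagulation, had normalised read counts of 3523, 3728 and 3286 with shRASSF2-1, 285, 450.5 and 375 with shRASSF2-2 and 449, 546 and 602 with shCTRL (2.73 against shCTRL, limma adjusted p = 5.15e-07). SLC4A3, an anion exchanger, had 418, 416 and 425 with shRASSF2-1, 28.3, 19.3 and 15.4 with shRASSF2-2 and 32.7, 59.0 and 69.4 with shCTRL (3.01 against shCTRL, limma adjusted p = 1.3e-05). NGEF, a guanine nucleotide exchange factor, had 228, 233 and 239 with shRASSF2-1, 11.3, 21.6 and 12.1 with shRASSF2-2 and 58.1, 29.1 and 32.8 with shCTRL (2.58 against shCTRL, limma adjusted p = 5.33e-05). In each the shRASSF2-1 libraries were highest with a wide gap. RGS11, a regulator of G protein signalling, had 3.96 and STRA6, a membrane receptor for retinol-binding protein, 2.57 against shCTRL (limma adjusted p = 5.3e-05 and 5.95e-05). The noncoding RNAs LINC00622 (4.04) and LINC00304 (3.92), KNDC1 (4.49) and the neutrophil chemokine CXCL6 (4.51) were near 0 in the other groups, so their fold changes depend on the pseudocount. Leaving out shCTRL replicate 2 brought LINC00622 to 3.37 and KNDC1 to 3.65, and leaving out shCTRL replicate 1 brought CXCL6 to 3.89. JAML and NYAP1 were also among the 15 highest, with 4.19 and 3.20. With a pseudocount of 0.1 the limma adjusted p of NYAP1 against shCTRL was 0.051 and that of JAML against shRASSF2-2 was 0.163. Leaving out shCTRL replicate 1 brought JAML to 2.92 and NYAP1 to 2.58 against shCTRL. JAML lost its call against shRASSF2-2 without any 1 of 5 libraries, shRASSF2-1 replicates 1, 2 and 3 and shRASSF2-2 replicates 2 and 3 (limma adjusted p of 0.0560 to 0.0742), and against shCTRL with flow cell as a covariate (0.0536).

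Among the genes that moved in opposite directions, FILIP1L, a regulator of cell migration, had normalised read counts of 3057, 2844 and 2815 with shRASSF2-1, 382, 319 and 357 with shRASSF2-2 and 855, 1209 and 1156 with shCTRL. LINC00482, a noncoding RNA, had 1039, 893 and 1036 with shRASSF2-1, 81.6, 102 and 86.8 with shRASSF2-2 and 149, 331 and 367 with shCTRL. The shRASSF2-1 libraries were highest and the shRASSF2-2 libraries lowest in both, with no overlap. Their log2 fold changes with shRASSF2-1 against shCTRL were 1.45 and 1.91 (limma adjusted p = 7.66e-06 and 0.000236). Some regulators outside the naming rule, chosen after their values were seen, had the same order or stayed at the control level with shRASSF2-2. YAP1, the coactivator restrained by the Hippo kinases that RASSF2 binds, had 259, 347 and 330.2 with shRASSF2-1, 89.6, 64.7 and 67.0 with shRASSF2-2 and 89.5, 113 and 139.7 with shCTRL (1.46 against shCTRL, limma adjusted p = 0.00017). The RASSF family and Hippo list did not move together. Of its 27 compared genes, 7 were higher and 6 lower with shRASSF2-1 than with shCTRL (median 0.061), where 27.3% and 30.0% of all genes were. Scaling to equal total reads gave 15 higher and 5 lower. By the rule above, 3 were particular to shRASSF2-1 and higher and 4 particular and lower. CEBPD, a myeloid transcription factor, had 1.497 with shRASSF2-1 and 0.19 with shRASSF2-2, CCND1, or cyclin D1, 1.76 and 0.41, and SOCS3, an inhibitor of cytokine receptor signalling, 1.24 and -0.16, each against shCTRL. TNFRSF10B, the TRAIL receptor DR5 and a p53 target, had 2043, 2087 and 2014 with shRASSF2-1, 543, 477 and 563 with shRASSF2-2 and 513, 635 and 795 with shCTRL (1.68 against shCTRL, limma adjusted p = 4.9e-06).

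**Figure D3:**
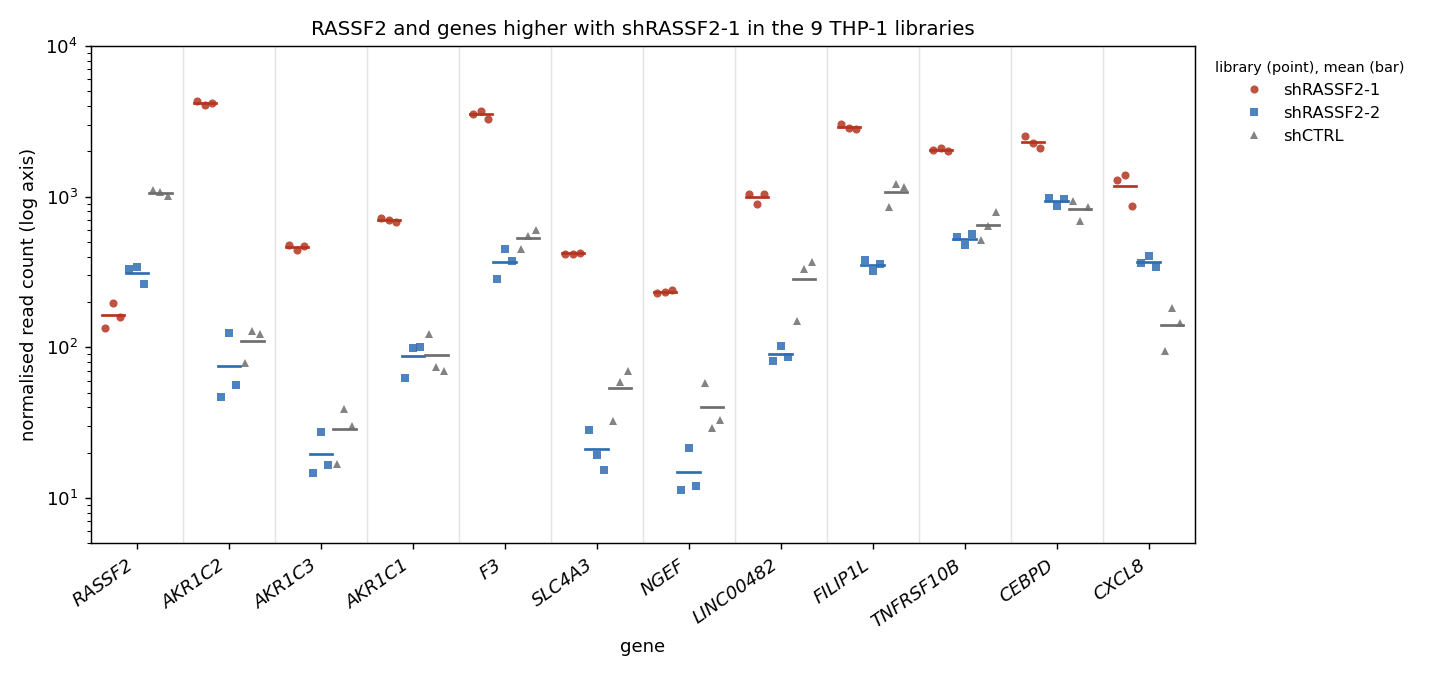
Normalised read counts on a log axis of RASSF2 and 11 genes that were higher with shRASSF2-1, in each of the 9 libraries, with a bar at each group mean (shRASSF2-1 red circles, shRASSF2-2 blue squares, shCTRL grey triangles). AKR1C2 stands at 4047 to 4330.3 with shRASSF2-1, 46.5 to 124 with shRASSF2-2 and 78.6 to 128 with shCTRL, while RASSF2 is lowest with shRASSF2-1.

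CXCL8, BCL3 and NFKBIA were highest with shRASSF2-1, but the NF-kB list as a whole did not follow them. Of 26 NF-kB subunits, inhibitors and targets compared, 14 were higher and 4 lower with shRASSF2-1 than with shCTRL, where 27.3% and 30.0% of all genes were, and 20 higher and 1 lower with shRASSF2-2 (30.6% and 30.2% of all genes). Between the hairpins, 6 were higher and 13 lower with shRASSF2-1 (median -0.34), or 11 and 10 with scaling to equal total reads. The genes of this paragraph were chosen after their values were seen. CXCL8, a neutrophil chemokine, had normalised read counts of 1289, 1386 and 864 with shRASSF2-1, 363, 403 and 339.6 with shRASSF2-2 and 94.3, 184 and 145 with shCTRL (1.65 between shRASSF2-1 and shRASSF2-2, limma adjusted p = 0.000171). BCL3, an atypical IkB protein, had 1103, 1102 and 929 with shRASSF2-1, 382, 496 and 368 with shRASSF2-2 and 252, 164 and 206 with shCTRL (1.34 between shRASSF2-1 and shRASSF2-2, limma adjusted p = 6.53e-05). NFKBIA, the inhibitor IkB-alpha, had 2893, 2627 and 2410.4 with shRASSF2-1, 1388, 1558 and 1514 with shRASSF2-2 and 939, 1155 and 1428 with shCTRL (0.83 between shRASSF2-1 and shRASSF2-2, limma adjusted p = 0.000492). Each shRASSF2-1 library was above every other library in these 3 genes. CXCL1 was 2.53 higher with shRASSF2-1 than with shRASSF2-2 (limma adjusted p = 0.0144) and 5.14 higher than with shCTRL, or 3.72 among the 7 libraries on 1 flow cell; its copies CXCL2 and CXCL3 did not pass between the hairpins (0.30 and -0.02, limma adjusted p = 0.756 and 0.972). These copies are near-identical and uncertain.

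Other members of the NF-kB list were low with shRASSF2-1. IL1RN, the interleukin-1 receptor antagonist, had normalised read counts of 231, 180.4 and 188 with shRASSF2-1, 1165, 1094 and 1328 with shRASSF2-2 and 480.2, 556 and 589 with shCTRL (-1.44 against shCTRL, limma adjusted p = 7.43e-06). SOD2, the mitochondrial superoxide dismutase, had 237, 339 and 311 with shRASSF2-1, 1383, 1546 and 1425 with shRASSF2-2 and 536, 602 and 551 with shCTRL (-0.94 against shCTRL, limma adjusted p = 0.000148). NFKB1, the p105 and p50 subunit, had -0.58 with shRASSF2-1 and 0.29 with shRASSF2-2, each against shCTRL. Neither IL1RN nor SOD2 had overlapping groups.

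Genes lowered by shRASSF2-1 outside the interferon lists included PAX5, MT2A and EGR3. PAX5, a B cell transcription factor expressed here without most other B cell markers, had normalised read counts of 31.4, 41.6 and 39.9 with shRASSF2-1, 1419, 1290.2 and 1485 with shRASSF2-2 and 1032, 504 and 538 with shCTRL (-4.09 against shCTRL, limma adjusted p = 4.67e-07). MT2A, a zinc and copper buffering metallothionein, had 92.4, 139 and 103 with shRASSF2-1, 1535, 1811 and 1985 with shRASSF2-2 and 775, 1299.6 and 1695 with shCTRL (-3.44 against shCTRL, limma adjusted p = 2.11e-06). EGR3, an immediate early zinc finger factor, had 26.7, 31.8 and 44.5 with shRASSF2-1, 299, 359 and 369 with shRASSF2-2 and 327, 351 and 195 with shCTRL (-3.03 against shCTRL, limma adjusted p = 4.07e-06). Of the 18 AP-1 and immediate early factors, EGR3 among them, 5 were lower and 3 higher with shRASSF2-1 than with shCTRL (median -0.13), where 30.0% and 27.3% of all genes were, and scaling to equal total reads gave 4 lower and 7 higher. For PAX5, MT2A and EGR3 the shRASSF2-1 libraries were lowest. The ranges of shRASSF2-2 and shCTRL overlapped for MT2A and EGR3, and PAX5 was higher with shRASSF2-2. The other lowest genes were the adhesion protein NEGR1 (-3.93), the monooxygenase-like MOXD1 (-3.86), the membrane glycoprotein IGSF1 (-3.51), DUSP27 (-3.24), the transporter SLC16A9 (-3.24) and the noncoding RNA LOC102467222 (-4.97) against shCTRL. Leaving out shRASSF2-1 replicate 2, the only shRASSF2-1 library in which LOC102467222 had reads, brought that gene to -5.79 and MOXD1 to -4.47.

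Of 12 metallothionein and zinc genes compared, 9 were lower and 1 higher with shRASSF2-1 than with shCTRL (median -1.85), where 30.0% and 27.3% of all genes were. With shRASSF2-2, 5 were lower and 2 higher than with shCTRL (median -0.18). Between the hairpins, 10 were lower and 1 higher with shRASSF2-1, where 29.3% and 29.5% of all genes were. By the rule above, 4 of the 12 were particular to shRASSF2-1 and lower, and 1 particular and higher. SLC30A1, the zinc exporter induced by the same factor as the metallothioneins, had normalised read counts of 309, 354 and 398 with shRASSF2-1, 2195, 2119.7 and 2235 with shRASSF2-2 and 1534, 847 and 748 with shCTRL (-1.49 against shCTRL, limma adjusted p = 0.000242). Its groups did not overlap. Metallothioneins resemble each other closely, so their single values are uncertain. Of 14 iron genes, 5 were lower and 4 higher with shRASSF2-1 than with shCTRL, near the 30.0% and 27.3% of all genes. NCOA4, the receptor that sends ferritin to lysosomes, had 1511, 1489.7 and 1584 with shRASSF2-1, 3611, 3652 and 3722 with shRASSF2-2 and 4261, 4079 and 3899 with shCTRL (-1.42 against shCTRL, limma adjusted p = 1.98e-07).

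Lysosomal genes separated the hairpins without moving together against shCTRL. Of 30 compared, 11 were higher and 9 lower with shRASSF2-1 than with shCTRL (median 0.14), where 27.3% and 30.0% of all genes were. With shRASSF2-2, 29 were higher than with shCTRL (median 1.37), where 30.6% of all genes were. Between the hairpins, 28 were lower with shRASSF2-1, where 29.3% of all genes were. With scaling to equal total reads 20 were higher and 6 lower with shRASSF2-1 than with shCTRL, and 22 lower than with shRASSF2-2. LAMP2, a lysosomal membrane glycoprotein, had normalised read counts of 1578, 1657 and 1610.2 with shRASSF2-1, 10057, 10858 and 10894 with shRASSF2-2 and 5242, 5551 and 5008 with shCTRL (-1.70 against shCTRL, limma adjusted p = 1.41e-07). ATP6V0D1, a subunit of the proton pump, had 443, 429.7 and 383 with shRASSF2-1, 3827, 3767 and 3774 with shRASSF2-2 and 1565, 1701 and 1529 with shCTRL (-1.93 against shCTRL, limma adjusted p = 1.37e-07). The groups were apart in both genes. The cathepsins D and B went the other way against shCTRL: CTSD had 5918, 7379.6 and 5834 with shRASSF2-1, 43430.0, 42921 and 42477 with shRASSF2-2 and 3157, 3102 and 3113 with shCTRL, and CTSB had 5451, 5875 and 5058 with shRASSF2-1, 36349.9, 36218 and 36258 with shRASSF2-2 and 2074, 2585 and 2595 with shCTRL (limma adjusted p = 6.46e-06 for shRASSF2-1 against shCTRL).

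Most genes of macrophage maturation were lower with shRASSF2-1 than with shRASSF2-2. Of 28 compared, 16 were higher and 8 lower with shRASSF2-1 than with shCTRL (median 0.45), where 27.3% and 30.0% of all genes were. With shRASSF2-2, 22 were higher and 4 lower than with shCTRL (median 2.46), where 30.6% and 30.2% of all genes were. Between the hairpins, 24 were lower and 1 higher with shRASSF2-1, where 29.3% and 29.5% of all genes were. Scaling to equal total reads gave 19 higher and 8 lower with shRASSF2-1 than with shCTRL, and 22 lower and 3 higher than with shRASSF2-2. CD14, the lipopolysaccharide co-receptor, had normalised read counts of 111, 137 and 116 with shRASSF2-1, 460.3, 331 and 408 with shRASSF2-2 and 14.5, 17.4 and 36.6 with shCTRL (-1.70 between shRASSF2-1 and shRASSF2-2, limma adjusted p = 0.000609). ITGAM, the integrin CD11b, had 1538, 1772 and 1560.3 with shRASSF2-1, 1492, 1552 and 1503 with shRASSF2-2 and 507, 516 and 515 with shCTRL, and its difference between the hairpins did not pass (0.10, limma adjusted p = 0.328). CD14 was intermediate with shRASSF2-1, whereas ITGAM stood at one level with both hairpins. CD14 and ITGAM were chosen after their values were seen.

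LPL, FABP5, MSR1, CDKN1A and ATF3, genes of lipid handling and stress, were below shCTRL with shRASSF2-1 and above it with shRASSF2-2. LPL, or lipoprotein lipase, had normalised read counts of 83.8, 85.8 and 95.3 with shRASSF2-1, 6789, 8442 and 6535 with shRASSF2-2 and 546, 722 and 733 with shCTRL (-2.89 against shCTRL, limma adjusted p = 1.63e-07). FABP5, a fatty acid carrier, had 785, 682 and 608 with shRASSF2-1, 6573, 7061 and 7142 with shRASSF2-2 and 2053, 2211 and 2235 with shCTRL (-1.65 against shCTRL, limma adjusted p = 5.23e-07). MSR1, the class A scavenger receptor, had 5.72, 19.5 and 8.16 with shRASSF2-1, 2007, 1716 and 2193 with shRASSF2-2 and 44.8, 39.0 and 31.9 with shCTRL (-1.86 against shCTRL, limma adjusted p = 0.00107). In all 3 the groups were apart, with shRASSF2-1 lowest. Of the 20 compared genes of the lipid handling list, 7 were lower and 6 higher with shRASSF2-1 than with shCTRL, near the 30.0% and 27.3% of all genes. With scaling to equal total reads 5 were lower and 7 higher. With shRASSF2-2, 14 were higher and 3 lower than with shCTRL. CDKN1A, the cyclin-dependent kinase inhibitor p21, had 372, 429.7 and 384 with shRASSF2-1, 7879, 8184 and 7665 with shRASSF2-2 and 1045, 958 and 1114 with shCTRL (-1.39 against shCTRL, limma adjusted p = 7.77e-07). ATF3, a stress-induced factor, had 46.7, 50.4 and 34.5 with shRASSF2-1, 2705, 2627 and 2656 with shRASSF2-2 and 60.5, 102 and 106 with shCTRL (-0.99 against shCTRL, limma adjusted p = 0.00288). The groups were apart for CDKN1A and ATF3 as well. Of 26 compared p53 targets, 10 were higher and 8 lower with shRASSF2-1 than with shCTRL, where 27.3% and 30.0% of all genes were. With scaling to equal total reads 14 were higher and 7 lower. CDKN1A and TNFRSF10B moved against each other within that list.

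**Figure D4:**
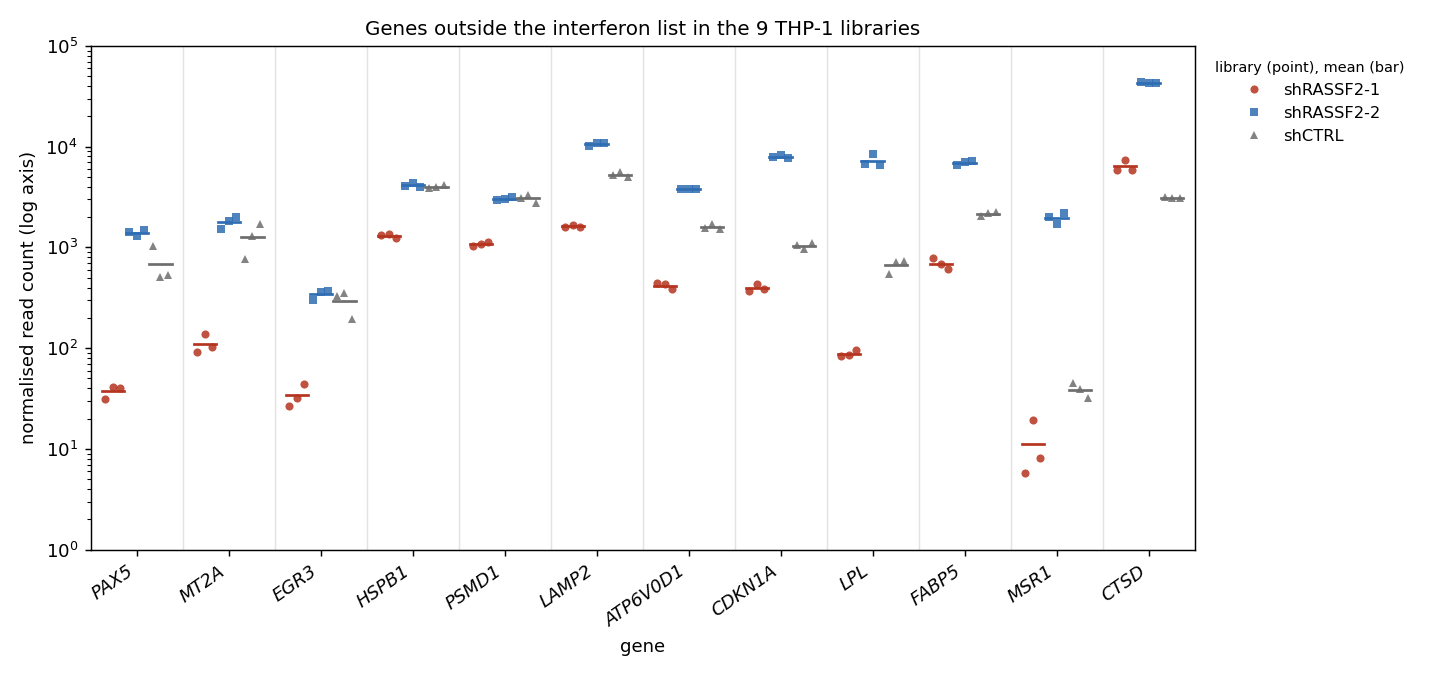
Normalised read counts on a log axis of 12 genes from outside the interferon lists in each of the 9 libraries, with a bar at each group mean (shRASSF2-1 red circles, shRASSF2-2 blue squares, shCTRL grey triangles). The first 11 genes, PAX5 to MSR1, are lowest with shRASSF2-1, as in LPL at 83.8 to 95.3 with shRASSF2-1, 6535 to 8442 with shRASSF2-2 and 545 to 733 with shCTRL, while CTSD lies between the other groups.

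PSMD1, HSPB1 and BAG3, genes of protein quality control, were lower with shRASSF2-1 than with either other hairpin. Of 30 proteasome subunits compared, 24 were lower with shRASSF2-1 than with shCTRL (median -0.52), against 10 lower and 5 higher with shRASSF2-2 (median -0.10). With scaling to equal total reads the shRASSF2-1 counts were 9 lower and 4 higher, so the small changes of this list depend on scaling. PSMD1, a base subunit of the regulatory cap, had normalised read counts of 1023, 1091 and 1119 with shRASSF2-1, 2987, 3007 and 3164 with shRASSF2-2 and 3121, 3339 and 2751 with shCTRL (-1.51 against shCTRL, limma adjusted p = 4.5e-07). HSPB1, the small heat shock protein HSP27, had 1335, 1347 and 1246 with shRASSF2-1, 4053, 4324 and 3978 with shRASSF2-2 and 3849, 3944 and 4200.1 with shCTRL (-1.61 against shCTRL, limma adjusted p = 1.59e-07). BAG3, a cochaperone of selective autophagy, had 377, 352 and 338 with shRASSF2-1, 989, 989 and 968 with shRASSF2-2 and 691, 798 and 794 with shCTRL (-1.09 against shCTRL, limma adjusted p = 4.51e-06). In each the shRASSF2-1 libraries were lowest without overlap, and PSMD1, HSPB1 and BAG3 kept their calls under every alternative tried. EDEM1, which directs misfolded glycoproteins to degradation, had -1.11 with shRASSF2-1 and 0.31 with shRASSF2-2, each against shCTRL, and the tryptophanyl-tRNA synthetase gene WARS -0.83 and 0.68. Of 25 heat shock chaperones, 22 were lower with shRASSF2-1 and 15 with shRASSF2-2, each against shCTRL. With scaling to equal total reads 16 were lower and 1 higher with shRASSF2-1. Between the hairpins, 9 of the 25 were lower and 3 higher with shRASSF2-1, or 4 and 10 with that scaling. Of 30 ATF4 targets and aminoacyl-tRNA synthetases, 20 were lower with shRASSF2-1 (13 with that scaling) and 11 with shRASSF2-2, each against shCTRL. Over all genes, 30.0% were lower with shRASSF2-1 than with shCTRL, 30.2% with shRASSF2-2, and 29.3% between the hairpins.

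Proliferation genes fell with both hairpins and less with shRASSF2-1. Of 38 mitosis genes compared, 37 were lower with shRASSF2-1 than with shCTRL (median -1.76), 38 with shRASSF2-2 (median -3.33), and 36 were higher with shRASSF2-1 than with shRASSF2-2, where 29.5% of all genes were. Of 39 DNA replication genes, 38 were lower with each hairpin than with shCTRL and 31 were higher with shRASSF2-1 than with shRASSF2-2. Over all genes, 30.0% were lower with shRASSF2-1 and 30.2% with shRASSF2-2, each against shCTRL. KIF23, a motor of cytokinesis, had normalised read counts of 541, 534 and 561 with shRASSF2-1, 129, 197 and 139.6 with shRASSF2-2 and 1396, 1582 and 1512 with shCTRL (1.83 between shRASSF2-1 and shRASSF2-2, limma adjusted p = 2.09e-06). RRM2, a ribonucleotide reductase subunit, had 459, 529 and 457 with shRASSF2-1, 134, 199 and 203 with shRASSF2-2 and 2206, 2086 and 2239 with shCTRL (1.45 between shRASSF2-1 and shRASSF2-2, limma adjusted p = 1.61e-05). MYB, a transcription factor of myeloid progenitors, had 5182, 4978 and 5293 with shRASSF2-1, 1151, 1247 and 1066 with shRASSF2-2 and 5651, 8112 and 8037 with shCTRL (2.16 between shRASSF2-1 and shRASSF2-2, limma adjusted p = 3.07e-07). KIF23, RRM2 and MYB were each between the other groups with shRASSF2-1, and their groups did not overlap. The fall of MYB with shRASSF2-1 against shCTRL lost its call with scaling to equal total reads (-0.099, limma adjusted p = 0.557). CTSG, the granule protease cathepsin G, kept most of its level with shRASSF2-1, with 21289.6, 21512 and 22552 normalised read counts, against 1486, 2461 and 1526 with shRASSF2-2 and 27467, 35305 and 30494 with shCTRL. The granule genes of progenitors were not spared as a list. Of 13 compared, 8 were lower and 0 higher with shRASSF2-1 than with shCTRL (median -1.01), where 30.0% and 27.3% of all genes were. With shRASSF2-2, 11 were lower and 0 higher than with shCTRL (median -2.30).

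**Figure D5:**
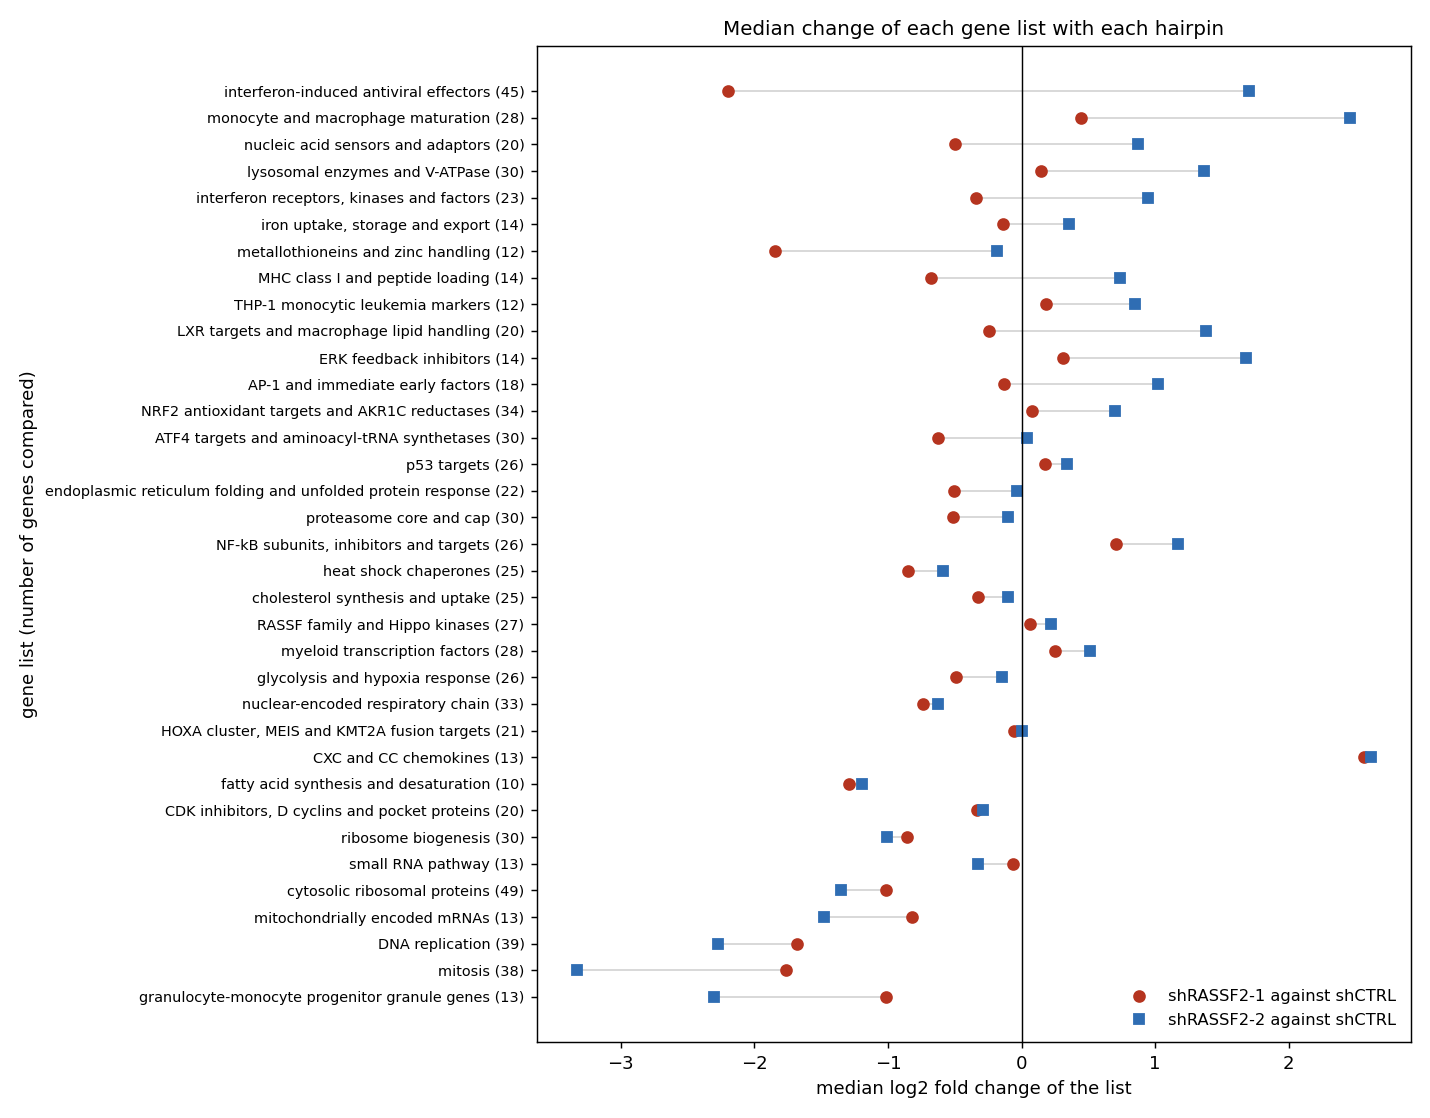
Median log2 fold change of each gene list with at least 10 compared genes, with shRASSF2-1 against shCTRL (red circles) and with shRASSF2-2 against shCTRL (blue squares), in order of the median difference between the hairpins. The interferon effectors at the top are at -2.20 with shRASSF2-1 and 1.70 with shRASSF2-2, and the mitosis list is at -1.76 with shRASSF2-1 and -3.33 with shRASSF2-2.

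Markers of other cell types were measured beside these results. Of the T cell markers only CD5 was compared, and CD3E, CD3G and CD8A were under the minimum in all shRASSF2-1 and shRASSF2-2 libraries. The T cell list summed to 42.9 to 59.0 with shRASSF2-1, 39.6 to 49.9 with shRASSF2-2 and 22.4 to 46.0 with shCTRL. The 10 epithelial markers summed to 1152 to 3033 with shRASSF2-1, 2237 to 2584 with shRASSF2-2 and 224 to 1142 with shCTRL. Of the 7 compared, 6 were higher with shRASSF2-1 than with shCTRL, 1 among the 7 libraries on 1 flow cell, and the limma test called 0 of the 7 between the hairpins. Of the 8 connective tissue and vessel markers compared, 5 were higher and 2 lower with shRASSF2-1 than with shCTRL, 2 and 1 among the 7 libraries on 1 flow cell, 6 higher and 1 lower with shRASSF2-2, and 1 higher and 1 lower between the hairpins. The 9 measured summed to 7796 to 8576 with shRASSF2-1, 6917 to 7342 with shRASSF2-2 and 5937 to 7855 with shCTRL. COL6A1, a chain of collagen VI, had 3663, 3608 and 3159.7 with shRASSF2-1, 2638, 2488 and 2519 with shRASSF2-2 and 679.8, 494 and 564 with shCTRL (2.59 against shCTRL and 2.62 among the 7 libraries). Of 3 B cell markers compared, 1 was higher and 1 lower with shRASSF2-1 than with shCTRL, and of 2 erythroid and megakaryocyte markers the limma test called neither. Epithelial markers and part of the connective tissue list differed from shCTRL with both hairpins. The shared flow cell holds 1 control, so flow cell cannot be told apart from the spread between control libraries. The epithelial marker KRT8 had normalised read counts of 16.9, 21.6 and 198 with shCTRL and 160, 496 and 106 with shRASSF2-1. The part of these markers in the results above was not tested. In RNA from whole cultures, fewer cells of a type and less RNA per cell cannot be told apart.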

How the data were processed

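Poly(A) RNA sequencing of THP-1 cells gave 9 libraries, 3 each of shRASSF2-1, shRASSF2-2 and shCTRL. The tools in the submitters' processing notes are DESeq2 1.18.1, featureCounts 1.6.2, HISAT2 2.1.0 and Picard, with build hg38. The authors' annotation, strand setting and filters are not given in the sources used here. Overlapping and antisense genes are therefore uncertain. The deposited values are a normalised signal: in each library 100% came out whole, within 0.001, when divided by 1 step per library, so they are gene counts divided by a size factor, and reads could be recovered. The authors' own fold change and p-value columns were not used. Of 18522 genes, 195 had no symbol (0.0683% of values) and are not named; 22 symbols turned into dates were restored from Entrez identifiers, and 18250 genes had a RefSeq position.

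Genes at 10 or more in at least 3 of the 9 libraries (15465) entered 1 limma-trend fit (limma 3.58.1, R 4.3.3) on log2(value + 1) with group as the only term; adjusted p-values (Benjamini-Hochberg) cover all of them, and 14902 are reported. Fold changes are on the log2(value + 1) scale. Members and gene lists were chosen with earlier results of these data known. Named genes are RASSF2, the 15 highest and 15 lowest particular genes with a mean of at least 50 in shRASSF2-1 or shCTRL, ranked by the smaller of their fold changes against shCTRL and shRASSF2-2, the 6 highest and 6 lowest opposite genes ranked likewise, and up to 4 members (12 where most of a list was particular) per list with a mean of at least 20 and the smallest p between hairpins. Some genes that met this rule are not reported here. Others are said to be chosen later. Scripts were tested on simulated data. Alternatives were edgeR 4.0.16 and DESeq2 1.42.0 on recovered reads, total-read scaling, filters, pseudocounts of 0.1 and 5, flow cell, the replicate block, a 2-fold threshold and each library left out.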

Additional observations from a re-analysis of the deposited data

Results flagged for a closer look

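Some genes responded in opposite directions to hairpins against the same gene. They were chosen for being called in opposite directions against shCTRL, so their difference between the hairpins follows from that choice and is given as a description. Against shCTRL, 850 genes were lower with shRASSF2-1 and higher with shRASSF2-2, and 372 were higher with shRASSF2-1 and lower with shRASSF2-2. Scaling to equal total reads gave 444 and 974, which turns that order round, and flow cell as a covariate gave 552 and 163. The 6 lowest of them had log2 differences between shRASSF2-1 and shRASSF2-2 of -7.41 for IFIT1, -7.21 for IFIT2, -7.03 for the lipid phosphatase-related PLPPR4, -6.77 for ISG20, -6.42 for IFIT3 and -6.34 for LPL. PLPPR4 had normalised read counts of 11.4, 6.19 and 2.72 with shRASSF2-1, 815, 925 and 971 with shRASSF2-2 and 56.9, 39.9 and 58.1 with shCTRL.

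The 6 highest had log2 differences of 5.08 for NYAP1, 3.44 for LINC00482, 3.24 for the Cdc42-binding kinase CDC42BPG, 3.21 for the pseudogene PRSS30P, 3.17 for the synaptic scaffold CASKIN1 and 3.04 for FILIP1L. CDC42BPG had normalised read counts of 97.2, 112 and 99.8 with shRASSF2-1, 10.2, 14.8 and 6.59 with shRASSF2-2 and 48.4, 38.2 and 19.7 with shCTRL. PRSS30P lost its call against shCTRL with flow cell as a covariate (limma adjusted p = 0.139). No cause of these opposite responses was tested.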

How the results depend on the processing

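Scaling to equal total reads gave 6847 genes higher and 2570 lower with shRASSF2-1 than with shCTRL, 7317 higher and 2661 lower than with shRASSF2-2, 3392 higher and 807 lower particular to shRASSF2-1, and 974 higher and 444 lower with opposite changes. Under it IRF9 (0.064), IFNAR2 (0.143), ERAP1 (0.065), SLC3A2 (0.11) and CD4 (0.017) changed sign against shCTRL and lost their call, and 32 others of 490 differences of named genes and effectors lost their call. With flow cell as a covariate 163 genes were higher and 552 lower with opposite changes, and 29 named differences lost their call. Requiring a 2-fold change of every call gave 1786 higher and 1766 lower against shCTRL, and 1924 and 2058 against shRASSF2-2. It gave 615 and 575 particular, and 57 and 187 opposite. Genes that shRASSF2-2 moved the same way by under 2-fold could then count as particular. The 615 and 575 thus exceed the 566 and 525 given earlier, which kept the first rule.

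Leaving out 1 library at a time gave 3375 to 4899 higher and 3974 to 5189 lower against shCTRL, 3731 to 5482 and 3895 to 5173 against shRASSF2-2, 1178 to 1944 and 1438 to 1980 particular, 255 to 600 and 717 to 1133 opposite, 41 to 43 particular effectors, and a RASSF2 log2 fold change of -2.86 to -2.58 against shCTRL and -1.08 to -0.80 against shRASSF2-2. Same-numbered libraries did not deviate together (correlations of -0.156 to 0.12 across genes), so no pairing by replicate number was seen. With 3 libraries a group this cannot exclude pairing. With the replicate block, 3868 genes were higher and 4299 lower against shCTRL, 4248 and 4226 against shRASSF2-2, 1453 and 1625 particular, and 321 and 798 opposite. On recovered reads edgeR called 4050 higher and 4538 lower against shCTRL, and DESeq2 4139 and 4671. Pseudocounts and filters kept every count within 1.5 times. With 3 libraries a group and 1 control on the shared flow cell, flow cell and group are only partly separable.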

Other observations

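Genes of the ribosome, respiratory chain and progenitor programme gave values not described above. Of 49 cytosolic ribosomal protein genes, 47 were lower with shRASSF2-1 (median -1.01) and 48 with shRASSF2-2 (median -1.35), each against shCTRL. Between the hairpins, 28 were higher and 4 lower with shRASSF2-1 (42 and 1 with scaling to equal total reads). Ribosomal protein genes have many processed copies and are uncertain. Of 33 nuclear-encoded respiratory chain genes, 23 were lower and 1 higher with shRASSF2-1 than with shCTRL, where 30.0% and 27.3% of all genes were. With shRASSF2-2, 22 were lower and 2 higher than with shCTRL, and 4 of the 33 were particular to shRASSF2-1 and lower. Scaling to equal total reads gave 19 lower and 3 higher with shRASSF2-1 than with shCTRL. COX4I1, a subunit of cytochrome oxidase, had normalised read counts of 1647, 1572 and 1524 with shRASSF2-1, 3191, 3296 and 3229.7 with shRASSF2-2 and 4623, 5367 and 4903 with shCTRL (-1.65 against shCTRL, limma adjusted p = 1.63e-07). MS4A3, a tetraspan protein of myeloid progenitors, had 138, 123 and 171 with shRASSF2-1, 21.5, 24.96 and 14.3 with shRASSF2-2 and 1919.6, 1887 and 1586 with shCTRL (2.79 between shRASSF2-1 and shRASSF2-2, limma adjusted p = 1.23e-06).

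TEAD3, a partner of YAP1 in DNA binding, had normalised read counts of 120.0, 131 and 118 with shRASSF2-1, 7.94, 14.8 and 18.7 with shRASSF2-2 and 127, 85.5 and 75.9 with shCTRL, and did not differ detectably between shRASSF2-1 and shCTRL (0.39, limma adjusted p = 0.306). RASSF3, a relative of RASSF2, had 297, 369.6 and 378 with shRASSF2-1, 1228, 1281 and 1265 with shRASSF2-2 and 507, 485 and 422 with shCTRL. ELANE, or neutrophil elastase, had 2107, 302 and 298 with shRASSF2-1, with replicate 1 apart from the other libraries, 20.4, 20.4 and 138 with shRASSF2-2 and 335, 216 and 210.0 with shCTRL.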
